A study of Mus musculus with 7 samples.

Results

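The 9 genes described here encode enzymes that build heme and the receptor that brings iron into the cell: *Alas1*, *Alas2*, *Alad*, *Uros*, *Urod*, *Cpox*, *Ppox*, *Fech* and *Tfrc*. They were taken by name from the 25033 gene rows of the count files, and 9 of 9 had enough reads to be tested among 11265 genes. RNA came from lin- bone marrow cells of 3 *HRP-2* wild type (Hrp2+/+) mice and 4 *HRP-2* knockouts, all 6 to 8 weeks old and not otherwise treated. Such cells are what is left of red-cell-lysed marrow of femur and tibia once mature lineages have been depleted. The strain was C57BL/6N. The knockouts carried the Hrp2tm1b allele, which removes HRP-2 from the whole animal, and since some knockouts are lost before weaning, the 4 mice are survivors. The labels number the mice as biological replicates, 1 library each.

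Heme is made by a chain of enzymes that begins and ends in the mitochondrion. 5-aminolevulinate synthase makes the first intermediate from glycine and succinyl-CoA. It exists as a general form, ALAS1, which heme itself holds down, and an erythroid form, ALAS2, which red cell precursors switch on together with the globin genes. ALAD, UROS and UROD act in the cytosol, CPOX and PPOX at the mitochondrial membranes, and ferrochelatase (FECH) places iron in the ring. Iron reaches marrow cells mostly on transferrin, through the transferrin receptor encoded by *Tfrc*, and red cell precursors carry more of this receptor than other marrow cells. Lineage depletion is directed at mature erythroid cells among others, so early precursors are the red cell stages best kept in lin- marrow.

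Iron acts on the mRNA of some of these genes through the iron-responsive element, a short hairpin with the loop letters CAGTGN that iron regulatory proteins bind when iron is low. In a 5′ UTR the bound protein holds back translation, and in a 3′ UTR it protects the mRNA from decay. GENCODE M21 transcripts on GRCm38 were searched for the letter C, 5 bases, the loop and 5 bases that pair with the first 5, with G-T pairs allowed. *Alas2* held 1 such hairpin in its 5′ UTR and *Tfrc* held 4 in its 3′ UTR, while the other 7 members held 0. The same search found a hairpin in 0.148% of the 5′ UTRs of 20899 genes and in 0.614% of the 3′ UTRs of 21022 genes. They are shown because the erythroid enzyme and the receptor are the members through which iron supply reaches this pathway. The *Alas2* hairpin lies at chrX:150547459-150547485 on the plus strand. The *Tfrc* hairpins lie on the plus strand at chr16:32631220-32631246, chr16:32631599-32631625, chr16:32631664-32631690 and chr16:32631711-32631737, printed in that order with the loop in capitals. Of the *Tfrc* hairpins, hairpin 3 is the one whose opening letters differ from the rest.
Alas2 5′ UTR hairpin: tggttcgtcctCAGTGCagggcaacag
Tfrc 3′ UTR hairpin 1: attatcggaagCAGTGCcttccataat
Tfrc 3′ UTR hairpin 2: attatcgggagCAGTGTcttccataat
Tfrc 3′ UTR hairpin 3: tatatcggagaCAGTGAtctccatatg
Tfrc 3′ UTR hairpin 4: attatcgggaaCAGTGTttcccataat

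The libraries sampled the 3′ ends of transcripts, 1 fragment for each, so CPM (reads per 1000000 reads on genes, with edgeR's TMM factors) does not grow with transcript length. Each library held between 3525665 and 5605158 reads on genes. The ribosomal precursor *Rn45s* took from 4.94% of those reads in knockout replicate 1 to 20.6% in wild type replicate 2, and 3 reads, taken as the floor, corresponded to between 0.561 and 0.840 CPM, for counting error only. *Hdgfl2*, the gene of HRP-2, stood at 50.0, 43.7 and 44.6 CPM in the wild type mice and at 2.53, 0.623, 1.49 and 0.498 CPM in the knockouts (p = 0.0286 by a two-sided exact permutation test, the lowest p that 35 splits allow). Knockout replicate 3 had 0.561 CPM of *Xist*, the RNA of the inactive X chromosome, where the remaining 6 mice had 229 to 303 CPM. *Alas2* lies on the X chromosome, and in that mouse it stood at 12.5 CPM, between the other knockout mice.

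None of the 9 members differed between genotypes at an adjusted p under 0.25 (the threshold of the study) by edgeR's quasi-likelihood test, by DESeq2 or by limma-voom. With edgeR 1 member, *Cpox*, had an unadjusted p under 0.05, and with DESeq2 and limma-voom its unadjusted p was 0.0583 and 0.0579. Over all genes tested, 2 were called, which is 0.0178%, and 3.63% had an unadjusted p under 0.05. The CPM of wild type and knockout mice overlapped in 9 of 9 members, whereas 5.16% of all genes tested did not overlap. The log2 fold change, knockout against wild type, was above 0 in 3 members and below 0 in 6 (50.2% of all genes were below 0), with a median of −0.15 against −0.0014 over all genes tested. The adjusted p from edgeR was 0.999 for each member. In bulk RNA, fewer cells of a type and less RNA per cell cannot be told apart.

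**Figure D1:**
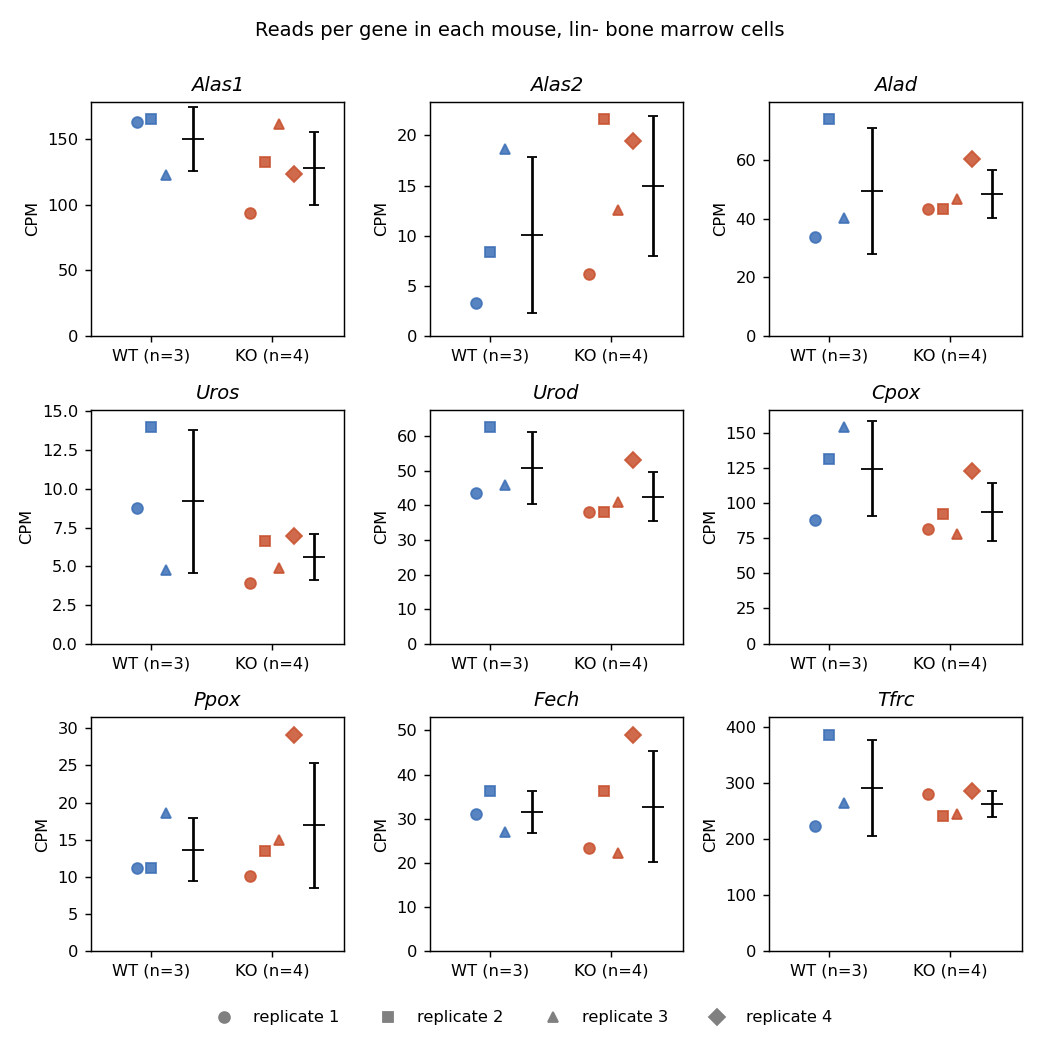
CPM of the 9 members in each of 3 wild type (WT) and 4 knockout (KO) mice, with 1 panel per gene and an axis that starts at 0. Symbols mark the replicate number, and the bar beside each group gives the mean and SD. The genotypes overlap in every panel, and *Alas2* has the widest fold range from the lowest to the highest of the 7 mice.

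The general enzyme *Alas1* was the main form in these cells. In order of replicate number, its level was 164, 165 and 122 CPM in the wild type mice. In the knockout mice it was 93.9, 133, 161 and 124 CPM. Knockout replicate 1 was the lowest of the 7 mice, and the 3 other knockout mice lay within the wild type range. The means were 150.5 ± 24.3 CPM (SD, n = 3) and 128.0 ± 27.8 CPM (SD, n = 4), and the log2 fold change was −0.23 (standard error 0.17). The 95% interval of the ratio, knockout to wild type, ran from 0.663 to 1.09. The log2 fold change was −0.11 without knockout replicate 1, and it was −0.37 (unadjusted p = 0.0399 from edgeR) without knockout replicate 3 and −0.36 without wild type replicate 3.

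The erythroid enzyme *Alas2* varied most. It stood at 3.29, 8.40 and 18.6 CPM in the wild type mice, from 15, 30 and 70 reads. In the knockout mice it stood at 6.22, 21.6, 12.5 and 19.4 CPM, from 32, 104, 67 and 78 reads. The lowest mouse was wild type replicate 1 and the highest was knockout replicate 2, and each genotype held both low and high mice. The highest level was 6.57 times the lowest, a span wider than that of 95.1% of the genes tested. The 95% Poisson interval, which covers counting error and not the noise of library preparation, was 1.84 to 5.43 CPM in wild type replicate 1 and 17.7 to 26.2 CPM in knockout replicate 2, the lowest and highest of the 7 mice. The means were 10.1 ± 7.79 CPM (SD, n = 3) and 14.9 ± 6.99 CPM (SD, n = 4), with a log2 fold change of 0.57 (standard error 0.55). Without wild type replicate 3 it was 1.37 (unadjusted p = 0.0161 from edgeR), and without wild type replicate 1 it was 0.14. Leaving out knockout replicate 2 gave 0.34. The ratio's 95% interval, from 0.641 to 3.45, includes both a fall and a rise of more than 1.5 times.

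Set against *Alas1* in the same mouse, *Alas2* amounted to 2.01%, 5.08% and 15.2% of the *Alas1* level in the wild type mice. Among the knockouts it amounted to 6.63%, 16.3%, 7.76% and 15.7%. The general form therefore exceeded the erythroid form by between 6.14 and 49.7 times. The *Alas2* gene lies wholly inside the span of *Apex2*, a DNA repair gene on the other strand, and the strand that was counted is not given in the sources used here. *Apex2* stood at 12.7, 3.92 and 7.97 CPM in the wild type mice and at 8.55, 5.61, 4.30 and 7.97 CPM in the knockout mice. How far reads of either gene were counted for the other was not tested.

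*Alad*, which joins 5-aminolevulinate molecules into the first pyrrole, stood at 33.8, 73.9 and 40.4 CPM in wild type mice and at 43.3, 43.4, 46.7 and 60.3 CPM in knockout mice. Wild type replicate 2 was the highest, and the knockout mice lay between it and the other wild type mice. The log2 fold change was −0.024 (standard error 0.24), and without wild type replicate 2 it was 0.39.

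*Uros*, whose enzyme closes the porphyrin ring, was the lowest member by mean level. It stood at 8.78, 14.0 and 4.78 CPM in the wild type mice, from 40, 50 and 18 reads. In the knockout mice it stood at 3.89, 6.65, 4.86 and 6.98 CPM, from 20, 32, 26 and 28 reads. Wild type replicates 1 and 2 were above the 4 knockout mice, while wild type replicate 3 was among them. The fold change was −0.72 on the log2 scale (standard error 0.41, unadjusted p = 0.0939 from edgeR), −0.29 without wild type replicate 2 and −1.02 without wild type replicate 3, and the ratio's 95% interval ran from 0.337 to 1.10.

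*Urod*, which trims the side chains of the ring, stood at 43.7, 62.7 and 46.0 CPM in wild type mice and at 38.1, 38.0, 40.9 and 53.1 CPM in knockout mice. Knockout replicate 4 lay inside the wild type range and the other 3 knockout mice lay below it. The log2 fold change was −0.26 (standard error 0.19), −0.077 without wild type replicate 2 and −0.38 without knockout replicate 4.

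The last 3 enzymes act at the mitochondrion. *Cpox*, which makes protoporphyrinogen, stood at 88.0, 131 and 154 CPM in the wild type mice. Its level in the knockout mice was 81.2, 91.8, 78.3 and 123 CPM. Wild type replicate 1 was close to 3 of the knockout mice, and knockout replicate 4 was close to wild type replicate 2. The means were 124 ± 33.6 CPM (SD, n = 3) and 93.6 ± 20.4 CPM (SD, n = 4), and the log2 fold change was −0.41 (standard error 0.19, unadjusted p = 0.0480, adjusted p = 0.999 from edgeR). The ratio's 95% interval was 0.566 to 0.997. The log2 fold change was −0.23 (unadjusted p = 0.282 from edgeR) without wild type replicate 3 and −0.60 (unadjusted p = 0.00595) without wild type replicate 1. *Cpox* did not pass the threshold once p-values were adjusted over all genes. Its 3′ end overlaps *Gpr15*, on the other strand, by 204 bases, and *Gpr15* was listed with 1 read in wild type replicate 2 and 0 in the other 6 mice.

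*Ppox*, which oxidises protoporphyrinogen, stood at 11.2, 11.2 and 18.6 CPM in wild type mice and at 10.1, 13.5, 14.9 and 29.2 CPM in knockout mice. Knockout replicate 4 was the highest by a wide margin, and the log2 fold change of 0.30 (standard error 0.34) was −0.085 without it. The 3′ end of *Ppox* overlaps that of *B4galt3*, a galactosyltransferase gene on the other strand, by 907 bases, so reads there may belong to either gene. *Fech* stood at 31.2, 36.4 and 27.1 CPM in wild type mice and at 23.3, 36.4, 22.2 and 49.1 CPM in knockout mice. Its lowest and highest values both fell in knockout mice, and the log2 fold change was 0.047 (standard error 0.26), with −0.21 without knockout replicate 4.

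*Tfrc* was the most abundant member. It stood at 223, 387 and 264 CPM in the wild type mice and at 280, 241, 245 and 286 CPM in the knockout mice. Wild type replicate 2 was the highest and wild type replicate 1 the lowest, with the 4 knockout mice between them. The knockout mice spanned 1.19 times and the wild type mice 1.74 times. The log2 fold change was −0.15 (standard error 0.16), with a ratio interval of 0.713 to 1.15. Its sign turned without wild type replicate 2, at 0.11, and it was −0.30 without wild type replicate 1.

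**Figure D2:**
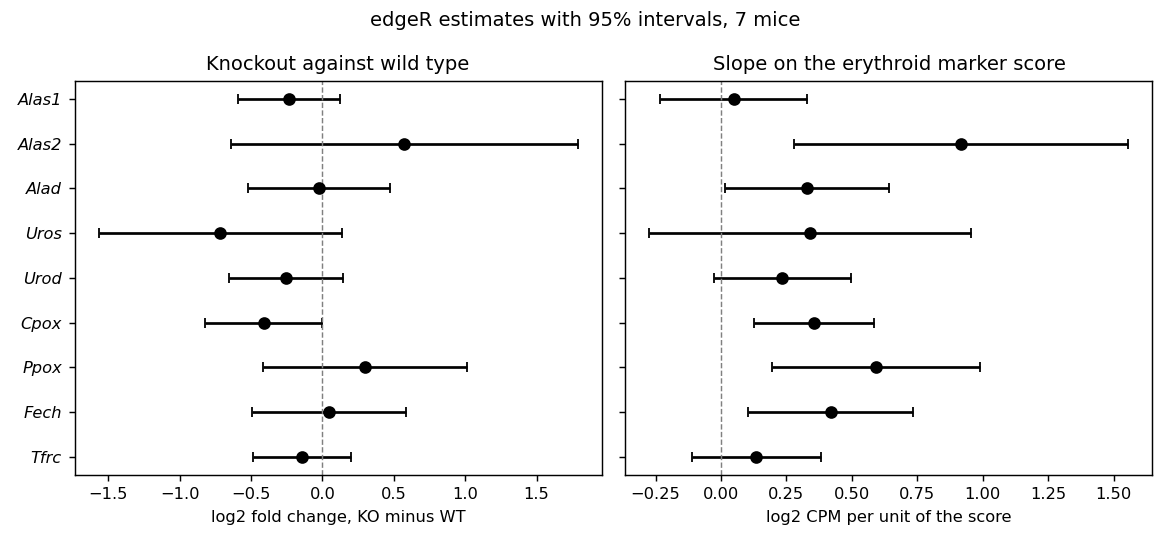
edgeR estimates for the 9 members over 7 mice, with 95% intervals. The left panel gives the log2 fold change, knockout minus wild type, and the right panel the change in log2 CPM per unit of the erythroid marker score. The left intervals include 0 except that of *Cpox*, which ends just below it, and on the right those of *Alas2*, *Alad*, *Cpox*, *Ppox* and *Fech* lie above 0. These intervals are not adjusted for the number of genes.

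By mean CPM over 7 mice the members ran from *Tfrc* through *Alas1*, *Cpox*, *Alad*, *Urod*, *Fech*, *Ppox* and *Alas2* to *Uros*. *Tfrc* was above *Alas1* in 7 of 7 mice, by 2.00 times on the means. *Cpox* was above *Alad*, *Urod* above *Fech* and *Fech* above *Ppox* in 7 of 7 mice each. *Alas1* was above *Cpox* in 6 of 7 mice. The neighbours *Alad* and *Urod*, *Ppox* and *Alas2*, and *Alas2* and *Uros* kept their order in 5 of 7 mice, so these pairs did not differ beyond their spread.

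To follow the erythroid content of each mouse, an erythroid marker score was taken as the mean log2 CPM of 22 tested genes from a list of 27, among them the membrane gene *Slc4a1* (band 3) and the regulator *Klf1*, with no globin and no member. The 3 wild type mice scored 3.18, 4.34 and 4.18. The 4 knockout mice scored 2.33, 3.53, 3.12 and 4.57. Knockout replicates 1 and 4 were the lowest and highest of the 7 mice, and the score was 0.51 lower on average in the knockout mice, less than the SD of 0.63 and 0.93 within the genotypes. That difference, knockout minus wild type, was −0.16 without knockout replicate 1, −0.31 without wild type replicate 2, −0.85 without wild type replicate 1 and −0.91 without knockout replicate 4. Taken back from the log scale, the score spanned 4.73 times between mice in the knockout group and 2.23 times in the wild type group. The 9 globin rows in the files held 0 reads in 6 mice and 1 read in knockout replicate 4, so the defining globin markers gave no measure of erythroid content. Whether globin reads were kept in the counting is not given in the sources used here. Within this list, *Slc4a1* ran from 7.77 CPM in knockout replicate 1 to 59.6 CPM in wild type replicate 2.

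The erythroid score did not move alone. The summed level of 11 megakaryocyte markers was lowest in knockout replicate 1, at 137 CPM, and highest in knockout replicate 4, at 933 CPM, and lay between 218 and 411 CPM in 5 mice. The share of *Rn45s* was also lowest in knockout replicate 1, and it was highest in the 2 mice of highest score, at 18.6% in knockout replicate 4 and 20.6% in wild type replicate 2. It did not follow the score throughout. Wild type replicate 3, next in score, had 9.43%, less than the 13.6% of knockout replicate 3, which scored lower. Summed lymphoid markers ran from 623 to 927 CPM and were likewise highest in knockout replicate 4, while summed neutrophil markers ran from 17188 CPM in wild type replicate 2 to 34845 CPM in knockout replicate 3. Of the 16 neutrophil markers, 13 had a log2 fold change above 0 (median 0.54), while 50.2% of all genes were below 0. An unadjusted p under 0.05 from edgeR was found for 0 of the 16, against 3.63% of all genes. Summed monocyte and macrophage markers ran from 1214 to 1387 CPM, but the mean log2 CPM over the 16 genes was 5.31 to 5.48 in wild type and 4.85 to 5.11 in knockout mice, and 7 of the 16 did not overlap between genotypes (5.16% of all genes tested did not). Summed mast cell, basophil and eosinophil markers were also lower in the knockout mice, at 3170 to 4403 CPM against 4576 to 4976 CPM, with 5 of 10 tested genes not overlapping, against the same 5.16%. So were the summed stem and progenitor markers, at 980 to 1081 CPM against 1128 to 1246 CPM, although 1 of 13 tested genes did not overlap, which is near the share over all genes. With the *Rn45s* and globin rows removed before scaling, the log2 fold change of *Alas2* was 0.57 and its slope on the score, described next, was 0.92, as with them. The globin rows held almost no reads and removing *Rn45s* changes only the scaling, so this fit cannot show what the *Rn45s* share stands for. Whether the members' levels follow the *Rn45s* share was not tested. The part of the other cell type markers in the members' levels was not tested, apart from the fit with a megakaryocyte score given below.

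**Figure D3:**
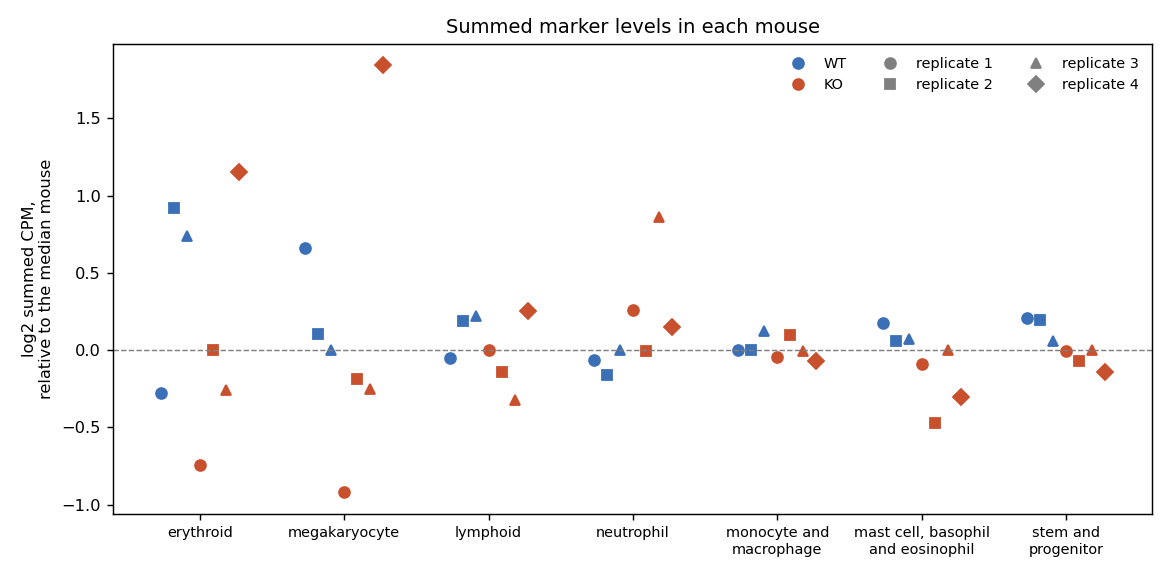
Summed CPM of 7 lists of cell type markers in each mouse, on a log2 scale relative to the median mouse of each list. Colours give the genotype and symbols the replicate number. Knockout replicate 4 is the highest and knockout replicate 1 the lowest mouse for both erythroid and megakaryocyte markers, whereas the summed monocyte and macrophage markers stay between 1214 and 1387 CPM.

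Each gene was then fitted with genotype and the erythroid marker score together, which gives its change in log2 CPM per unit of the score (the slope) among mice of the same genotype. The slope was positive in 9 of 9 members, against 50% of the 11243 genes outside the score, and the median slope of the members was 0.34. Positive slopes were not confined to the members. Of 8 tested megakaryocyte markers 7 were positive (median 0.885), with 2 at an unadjusted p under 0.05, and of 16 lymphoid markers 11, with 4. Of 25 further heme genes, described below, 14 were positive (median 0.063), with 2 at such a p, and of 19 iron genes 7, with 1. Slopes with an unadjusted p under 0.05 were found for 5 members, *Cpox*, *Ppox*, *Alas2*, *Fech* and *Alad*, against 3.98% of genes outside the score, or 2.38% with a positive slope. This count rested on the mouse of highest score: without knockout replicate 4 it was 1, *Alas2*, and the unadjusted p was 0.0633 for *Cpox*, 0.276 for *Ppox*, 0.282 for *Fech* and 0.124 for *Alad*. It was 3 without wild type replicate 1 and 3 without knockout replicate 1. None of the 9 passed an adjusted p under 0.25 with edgeR or with DESeq2, and 10 genes outside the score did, which is 0.0889% (0.178% of genes when its own markers are counted). The score and the genes come from the same libraries, and the members are steps of 1 pathway, so the 9 slopes are not independent of each other.

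The slope of *Alas2* was the steepest of the members, at 0.92 (standard error 0.30, unadjusted p = 0.00796, adjusted p = 0.994 from edgeR). It was 0.65 (unadjusted p = 0.0507) without wild type replicate 1, where the slope of *Ppox* was 0.67. The *Alas2* slope was 0.77 (unadjusted p = 0.0857) without knockout replicate 1 and 0.62 (unadjusted p = 0.0839) with no genotype term in the fit. Among wild type mice *Alas2* was lowest where the score was lowest, but replicate 2, with the highest wild type score, had less *Alas2* than replicate 3. Among knockout mice it followed the order of the score except that replicate 2 was slightly above replicate 4. With DESeq2 the adjusted p of this slope was 0.262, the lowest for any member in any fit. At an equal score, *Alas2* was 1.07 higher in the knockout mice on the log2 scale (standard error 0.43, unadjusted p = 0.0249, adjusted p close to 1 from edgeR), which does not pass the threshold that 0.0178% of genes passed in that fit.

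*Ppox* had a slope of 0.59 (standard error 0.19, unadjusted p = 0.00616). Its highest level, in knockout replicate 4, was in the mouse of highest score, and its lowest, in knockout replicate 1, was in the mouse of lowest score. *Fech* had a slope of 0.42 (standard error 0.15, unadjusted p = 0.0124) and *Cpox* of 0.36 (standard error 0.11, unadjusted p = 0.00478). The 3 highest *Cpox* levels were in the 3 mice of highest score, wild type replicates 2 and 3 and knockout replicate 4. *Alad* had a slope of 0.33 (standard error 0.15, unadjusted p = 0.0417). At an equal score the log2 fold change of *Cpox* between genotypes was −0.22 (unadjusted p = 0.201 from edgeR), against −0.41 without the score.

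*Alas1*, the general form, had a slope of 0.049 (standard error 0.13, 95% interval −0.23 to 0.33), the least of the 9. The slope of *Tfrc* was 0.14 (standard error 0.12, 95% interval −0.11 to 0.38), and it was 0.33 (unadjusted p = 0.0545 from edgeR) without knockout replicate 1, 0.031 without wild type replicate 1 and 0.060 without wild type replicate 2. The intervals of both include 0 and lie below 1, the slope of a gene that moves in step with the score. *Uros* and *Urod* had slopes of 0.34 (standard error 0.29) and 0.23 (standard error 0.12), and their intervals also include 0. Over the alternative fits these slopes ran from 0.16 to 0.47 and from 0.18 to 0.31. Whether the slope of *Alas2* differs from that of *Alas1* or *Tfrc* was not tested.

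**Figure D4:**
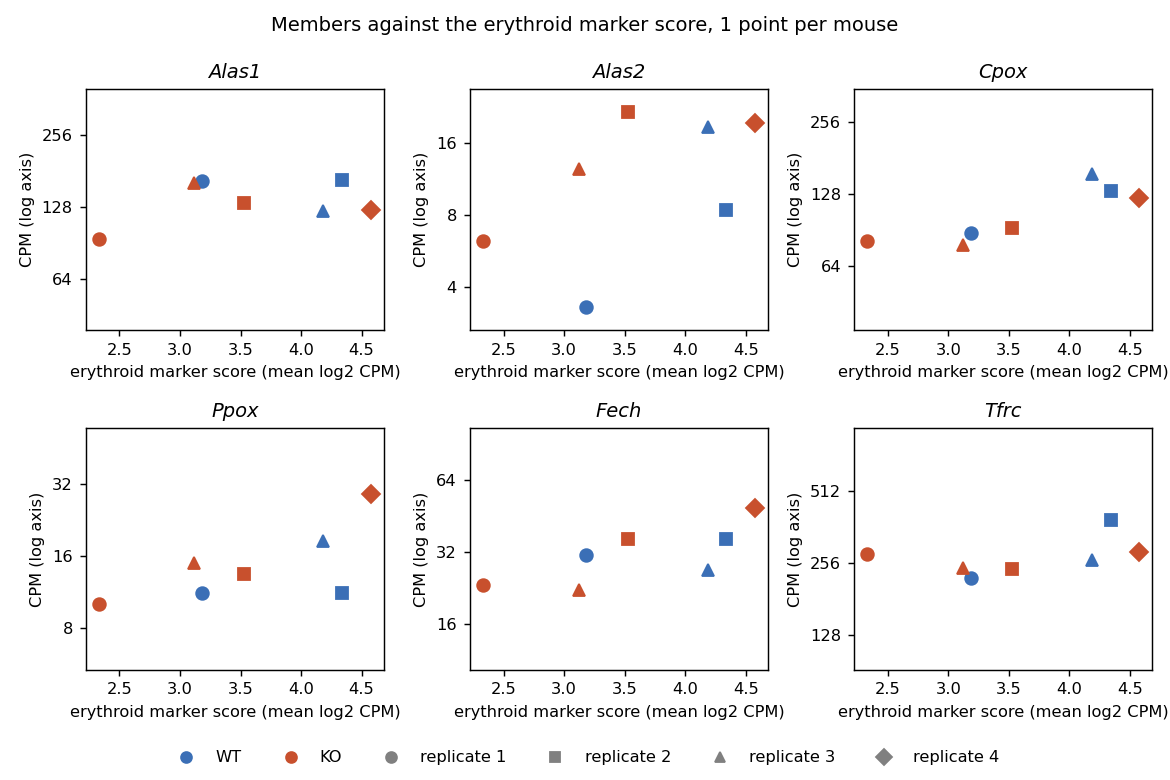
CPM on a log axis against the erythroid marker score for *Alas1*, *Alas2*, *Cpox*, *Ppox*, *Fech* and *Tfrc*, with 1 point per mouse and the same number of doublings on each vertical axis. *Alas2* spans the widest range and its 2 lowest points lie among the mice of lower score, while *Alas1* and *Tfrc* stay within a 1.76-fold and a 1.74-fold range.

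As a fit added after the data had been seen, the mean log2 CPM of the megakaryocyte markers was entered beside the erythroid score. The slope of *Alas2* was then 1.45, that of *Alad* 0.50 and that of *Cpox* 0.46, each at an unadjusted p under 0.05. Those of *Ppox* and *Fech* were 0.43 (unadjusted p = 0.128 from edgeR) and 0.26 (unadjusted p = 0.218), and that of *Alas1* was close to 0. Leaving out 1 mouse at a time gave a highest slope of *Alas2* of 1.59, without knockout replicate 4. Without knockout replicate 4 the slope of *Ppox* was 0.35 and that of *Fech* 0.26.

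Across the 7 mice, the genes with a log2 CPM most like *Alas2* by Pearson correlation, among 11264 others, were *E2f4*, a cell cycle repressor needed for red cell maturation, at r = 0.931, followed by *Nhlrc1*, *Txnl4b*, *Mib1*, *Timmdc1*, *Fsbp*, *Snord89* and *Irak4*, with r down to 0.903. With 7 mice and this many genes such values are a description only. The erythroid regulator *Klf1* stood at r = 0.836 (rank 55), the mitochondrial glycine carrier *Slc25a38* at 0.816 (rank 78) and *Ppox*, the nearest member, at 0.695 (rank 295). *Gata1*, also an erythroid regulator, stood at −0.0293 (rank 5932). *Alas1* had r = −0.191 with *Alas2*. The genes most like *Alas1* were *Tradd*, *Sik3*, *Dpp9*, *Dnmt3a*, *Tmem273*, *Ssr3*, *Ndufa3* and *Tmem86a*, with r from 0.985 to 0.957. The genes of each group share their 7 libraries and their depth.

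GATA-1, the main transcription factor of red cell precursors, binds the letters AGATAA on either strand, with T allowed as the opening letter and G as the last, and KLF1 binds CCNCNCCC. RefSeq starts of the members on GRCm38.p6 were searched over 250 bases upstream, without bases that lie in an exon. The windows of *Alas1* were wholly exonic, and *Fech* was not searched. Among the other 7 members, *Alas2*, *Cpox* and *Uros* held a GATA match, while 26.5% of 32851 single promoters hold one in the full 250 bases. The 2 shares are not like for like, since the *Alas2* window was 208 bases and the *Uros* window with the match 134 bases after exonic bases were dropped, and *Uros*, *Alad* and *Tfrc* had 2 starts each. CCNCNCCC was found for *Alad*, *Uros* and *Tfrc*, and in 45.9% of the full-length promoters. The promoters of *Alas2*, *Cpox* and *Ppox* are printed because these 3 members had slopes with the lowest unadjusted p. *Alas2* (chrX:150547167-150547374, plus strand) held 1 match, 86 bases before the start. *Cpox* (chr16:58669958-58670207, plus strand) held 2 matches that overlap by 1 base, at 91 and 86 bases before the start. *Ppox* (chr1:171281187-171281436, minus strand) held neither motif. Matches are in capitals, and a match says nothing about binding in these cells.
Alas2 promoter: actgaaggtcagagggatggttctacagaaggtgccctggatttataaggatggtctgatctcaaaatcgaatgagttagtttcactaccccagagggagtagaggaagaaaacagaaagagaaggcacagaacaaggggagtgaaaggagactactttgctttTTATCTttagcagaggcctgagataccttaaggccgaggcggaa
Cpox promoter: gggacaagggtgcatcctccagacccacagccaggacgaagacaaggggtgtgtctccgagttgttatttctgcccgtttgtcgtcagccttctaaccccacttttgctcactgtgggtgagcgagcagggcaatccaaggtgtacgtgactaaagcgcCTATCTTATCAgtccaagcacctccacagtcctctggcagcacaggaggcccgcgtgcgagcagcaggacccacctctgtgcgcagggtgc
Ppox promoter: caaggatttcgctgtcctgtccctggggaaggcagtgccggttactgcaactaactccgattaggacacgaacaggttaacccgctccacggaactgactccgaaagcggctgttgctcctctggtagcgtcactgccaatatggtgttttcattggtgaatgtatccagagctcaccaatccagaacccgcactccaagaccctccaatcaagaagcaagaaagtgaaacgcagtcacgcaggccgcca

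Around the 9 members, 27 further genes of mitochondrial transport, iron-sulfur assembly and heme control were followed, of which 25 were tested. Over all genes tested, 0.0178% were called between genotypes, 50.2% had a log2 fold change below 0 and 3.63% an unadjusted p under 0.05. None of these 25 was called by edgeR. Their log2 fold changes were above 0 in 16 and below 0 in 9, and 1, near the share over all genes, had an unadjusted p under 0.05. That gene was *Hscb*, a chaperone of iron-sulfur cluster assembly, with 18.9, 28.0 and 27.9 CPM in wild type mice and 7.97, 15.8, 15.7 and 21.2 CPM in knockout mice. It was lower in knockout mice by the means (log2 fold change −0.72, standard error 0.29, unadjusted p = 0.0211, adjusted p = 0.999 from edgeR) but knockout replicate 4 was above wild type replicate 1. The slope of *Hscb* on the erythroid score was 0.56 (unadjusted p = 0.00481 from edgeR). At an equal score its log2 fold change was −0.47 (unadjusted p = 0.0704 from edgeR). *Abcb6*, a porphyrin transporter, had a log2 fold change of −0.53, *Isca2*, of iron-sulfur assembly, −0.39, and *Slc25a28*, the mitochondrial iron carrier mitoferrin 2, 0.29.

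Of 27 genes of iron uptake, storage and export, 19 were tested and none was called by edgeR, against 0.0178% of all genes tested. An unadjusted p under 0.05 was found for 0 of them, against 3.63% of all genes. Their log2 fold changes were above 0 in 11 and below 0 in 8, and 50.2% of all genes were below 0. The transferrin sensor *Tfr2* had a log2 fold change of −0.49, the endosomal ferrireductase *Steap3* 0.61, the iron exporter *Slc40a1* −0.27 and the ferritin light chain *Ftl1* 0.19. Of 9 genes of heme breakdown and scavenging, 8 were tested and none was called. Their log2 fold changes were above 0 in 5 and below 0 in 3. Against the same 3.63% of all genes, 1 of the 8 had an unadjusted p under 0.05. That gene was haptoglobin, *Hp*, at 82.5 ± 11.6 CPM (SD, n = 3) and 107.6 ± 16.5 CPM (SD, n = 4), and its log2 fold change was 0.38 (standard error 0.16, unadjusted p = 0.0277). The heme oxygenases *Hmox1* and *Hmox2* had log2 fold changes of −0.52 and −0.89, the latter from levels of 3.16 and 1.69 CPM, and the hemoglobin scavenger receptor *Cd163* had 0.54.

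Of the 22 erythroid markers tested, none was called between genotypes by edgeR, against 0.0178% of all genes tested. Their log2 fold changes were above 0 in 5 and below 0 in 17, with a median of −0.39, and 50.2% of all genes were below 0. An unadjusted p under 0.05 was found for 1, *Kel*, near the 3.63% of all genes. The fold change on the log2 scale was −0.88 for *Kel*, a blood group gene (standard error 0.40, unadjusted p = 0.0440), −0.52 for *Gata1* and −0.65 for *Hemgn*, a nuclear protein of red cell precursors. *Klf1* went the other way by its estimate, at 0.73, and at an equal score by 1.21 (standard error 0.36, unadjusted p = 0.00393), although *Klf1* is itself part of the score. *Alas2* and 5 of the 22 markers, *Klf1* among them, thus had log2 fold changes above 0 where the other 17 markers were below 0. None of these passed the threshold.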

How the data were processed

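The deposited values were whole-number counts of reads per gene, not normalized, in 1 file per mouse. The authors made 3′ end libraries from 500 ng of RNA, read them as 75 bp single reads, aligned them to GRCm38 with STAR on Ensembl annotation and tested genes with DESeq2. The counted strand is not given in the sources used here. Rows for 5 tallies were left out, of which reads on no gene were 27.0% to 31.6% and ambiguous reads 1.99% to 2.40% of the tally in a library. Between 3525665 and 5605158 reads on genes per mouse limit the precision of low genes such as *Uros* and *Alas2*.

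Counts were filtered with filterByExpr, scaled with TMM and tested with the robust quasi-likelihood test of edgeR 4.0.16 (R 4.3.3), with Benjamini-Hochberg adjustment over 11265 genes. A standard error is the log2 value divided by the square root of F. The erythroid marker score used log2 CPM with a prior count of 2. The edgeR test stood in place of the authors' DESeq2, and DESeq2 1.42.0 and limma-voom (limma 3.58.1) were alternatives, with others given under the processing limits. On counts simulated for knockout against wild type over 11265 genes, edgeR found 133 of 200 genes shifted by a log2 change of 1 with 49 false calls, and 190 of 200 shifted by 2 with 67. For the slope on the score it found 172 of 200 genes with a slope of 1, with 58 false calls. The shifts were placed on genes drawn at random and exceeded the main estimate of every member. These figures therefore do not give the power for the members.

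The members and the gene lists were chosen with earlier results of these data known. Besides the members, the text names *Hdgfl2*, the 4 genes of smallest unadjusted p in each list, the 8 genes most correlated with *Alas2* and with *Alas1*, *Gata1*, *Klf1*, the globin rows and library checks. *Slc4a1*, *Apex2*, *B4galt3*, *Gpr15* and *Slc25a38* were added after their values were seen. Same-numbered mice are separate animals and were not treated as pairs. The deviations from the group means correlated at −0.0235, −0.189 and −0.142 for numbers 1 to 3. Each value rests on a single pair of mice, so they cannot show whether same-numbered mice shared a litter, a day or a batch. Within each genotype the libraries were further apart than sampling noise, with a chi-square per degree of freedom of 7.8 to 48.9. Exact tests were two-sided. Loci and UTRs came from GENCODE M21 and promoters from RefSeq.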

Additional observations from a re-analysis of the deposited data

Results flagged for a closer look

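Among 34 items examined in the 4 knockout mice, 4 had a mouse far from the others by Dixon's ratio, where chance gives about 1.7. *Slc25a28*, of mitochondrial iron import, was highest in knockout replicate 3, at 45.4 CPM (ratio 0.906). *Isca2*, of iron-sulfur assembly, was set apart in knockout replicate 2, at 36.0 CPM (ratio 0.855). *Hemgn*, an erythroid marker, stood apart in knockout replicate 4, at 37.4 CPM (ratio 0.868), and so did the summed megakaryocyte markers, at 932.6 CPM (ratio 0.886). No member of the heme and iron uptake group was set apart in this way.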

How the results depend on the processing

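No member passed the threshold between genotypes or on the erythroid score in any fit that was run. The 2 genes called between genotypes became 19 with DESeq2, 41 without a filter on low counts and 1 with the replicate block, and leaving out 1 mouse at a time gave between 2 and 7 (7 without wild type replicate 1, 4 without knockout replicate 1). The 20 genes called on the score, which include 10 of its own markers, became 43 with DESeq2, 45 without the filter and 6 with the megakaryocyte score as a further term, and leaving out 1 mouse gave between 0, without knockout replicate 4, and 41, without wild type replicate 1. The cause of these shifts was not tested.

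Of the 9 log2 fold changes, 4 turned their sign in some fit. *Alad* (−0.024) was 0.058 with limma-voom, 0.17 with the score as a covariate, and 0.39, 0.029 and 0.024 without wild type replicate 2, knockout replicate 1 and knockout replicate 2. *Fech* (0.047) was −0.045 with limma-voom, −0.23 with the replicate block, and −0.050, −0.0097 and −0.21 without wild type replicate 3, knockout replicate 2 and knockout replicate 4. Over the mice left out, *Fech* reached at most 0.20. *Ppox* (0.30) ran from −0.085, without knockout replicate 4, to 0.58 and was −0.071 with the replicate block, and *Tfrc* (−0.15) ran from −0.30 to 0.11, without wild type replicate 2. The slope of *Alas1* ran from −0.19, without knockout replicate 1, to 0.15 and was −0.00075 with the megakaryocyte term. The block changed no other sign or call of a member. Knockout replicate 4 has no same-numbered wild type mouse, so the block takes it out of the genotype estimate. The block is therefore not a check separate from the fit without that mouse.

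The score difference between genotypes (−0.51) ran from −0.91, without knockout replicate 4, to −0.16, without knockout replicate 1. The alternative with the summed globin level as the score was not run, since its rows held 1 read in all. The fits with the megakaryocyte term and with the summed marker level as the score were chosen after seeing the data. Depth limits *Alas2* and *Uros*, with as few as 15 and 18 reads in a mouse, and the 3′ overlaps of *Alas2* with *Apex2*, of *Ppox* with *B4galt3* and of *Cpox* with *Gpr15* could not be resolved.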
